A study of Mus musculus with 12 samples.

Results

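The genes of the FGF23 hormone system of the kidney were followed across 12 mouse kidney RNA libraries: the ligand Fgf23, the co-receptors Kl (klotho) and Klb (beta-klotho), the receptors Fgfr1, Fgfr2, Fgfr3 and Fgfr4, and the receptor adaptor Frs2. They were taken by symbol from the deposited gene table, and 8 of its 32047 genes are members. Every gene has a read count and an FPKM in each library, the FPKM being a fragment level that takes gene length and sequencing depth into account.

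The libraries fall into 3 groups of 4 by their titles. In AKI_FGF23_R176QR179Q, called the FGF23 variant libraries here, mice overexpressed FGF23 carrying R176Q and R179Q, and acute kidney injury (AKI) was induced 3 weeks later by rhabdomyolysis, the breakdown of skeletal muscle. AKI_mcherry has the injury and, by its name, the fluorescent protein mCherry in place of FGF23, and NC, whose letters the labels do not spell out, names neither an injury nor an overexpressed protein. The labels used here give no strain, sex, age, vector, promoter or time of kidney collection, and do not say whether libraries come from separate animals, and p-values thus reflect only how far these libraries spread, in part perhaps for technical reasons. The titles of both injured groups also carry a letter A, left out of the group names here, whose meaning the titles do not give. AKI_mcherry and NC thus differ in name by injury, by mCherry and by this letter, and these cannot be told apart.

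FGF23 is a hormone made mainly by bone cells. In the kidney it binds a complex of an FGF receptor and klotho, lowers phosphate reabsorption and turns down the making of active vitamin D. Klotho is a membrane protein made mostly by the distal convoluted tubule and, at a lower level, by the proximal tubule, and without it FGF23 binds FGF receptors only weakly. FRS2 is a docking protein under the receptors that passes the signal on to the RAS and ERK kinase cascade. The arginines that the variant lacks belong to the site where proteases of the furin type cut FGF23 and end its activity, and the same substitutions are known from inherited human hypophosphatemic rickets.

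The site is shown because R176Q and R179Q lie in it. The species of the overexpressed sequence is not given in the labels, and the mouse gene is printed. The line gives codons 170 to 185 of the 251 in the reference transcript Fgf23-201 (GENCODE M21, chromosome 6), written 5′ to 3′. Capitals mark the codons that R176Q and R179Q replace, both CGC for arginine. The count table gives 1 value for the gene, and does not tell RNA of the overexpressed variant from RNA of the animal's own gene.
Fgf23 codons 170 to 185: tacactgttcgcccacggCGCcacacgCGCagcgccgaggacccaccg

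Start-site windows are shown for Kl, Fgfr3 and Fgfr4, the members that were lower in both injured groups than in NC. They are RefSeq windows on the build GRCm38.p6, which is not the authors' build, and run from 250 bases before the annotated start to 50 bases after it, 5′ to 3′ on the gene's strand. Capitals mark the GC box, searched as GGGCGG and CCGCCC so that both strands are covered, with neighbouring matches running together. It occurred in 5 of the 8 windows that RefSeq lists for 7 members, all those of these 3 genes included, and in 35.66% of all 32851 windows of this length. The TATA box, searched as TATAAA and TTTATA, occurred in 0 of the 8 windows and in 13.62% of all windows. These matches describe letters in a window and are not evidence of binding.
Kl, chr5:150952357-150952656, plus strand, 3 GC boxes: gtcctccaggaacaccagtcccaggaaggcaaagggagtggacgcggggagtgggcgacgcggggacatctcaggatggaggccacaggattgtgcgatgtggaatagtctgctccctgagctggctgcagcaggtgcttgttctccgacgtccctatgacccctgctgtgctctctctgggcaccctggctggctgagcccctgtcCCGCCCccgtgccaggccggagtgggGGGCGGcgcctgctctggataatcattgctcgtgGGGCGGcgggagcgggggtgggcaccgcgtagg
Fgfr3 first start, chr5:33721474-33721773, plus strand, 4 GC boxes: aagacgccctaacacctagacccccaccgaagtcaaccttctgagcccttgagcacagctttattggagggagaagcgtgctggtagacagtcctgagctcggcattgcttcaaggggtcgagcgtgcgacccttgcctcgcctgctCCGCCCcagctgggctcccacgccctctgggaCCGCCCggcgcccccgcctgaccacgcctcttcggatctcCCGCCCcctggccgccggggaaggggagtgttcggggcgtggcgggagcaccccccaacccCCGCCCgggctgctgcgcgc
Fgfr3 second start, chr5:33722056-33722355, plus strand, 2 GC boxes: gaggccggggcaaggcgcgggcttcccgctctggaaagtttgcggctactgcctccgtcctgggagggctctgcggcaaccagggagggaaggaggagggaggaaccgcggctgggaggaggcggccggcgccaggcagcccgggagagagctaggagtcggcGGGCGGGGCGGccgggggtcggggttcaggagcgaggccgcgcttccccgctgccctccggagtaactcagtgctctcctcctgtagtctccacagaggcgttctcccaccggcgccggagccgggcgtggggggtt
Fgfr4, chr13:55152568-55152867, plus strand, 4 GC boxes: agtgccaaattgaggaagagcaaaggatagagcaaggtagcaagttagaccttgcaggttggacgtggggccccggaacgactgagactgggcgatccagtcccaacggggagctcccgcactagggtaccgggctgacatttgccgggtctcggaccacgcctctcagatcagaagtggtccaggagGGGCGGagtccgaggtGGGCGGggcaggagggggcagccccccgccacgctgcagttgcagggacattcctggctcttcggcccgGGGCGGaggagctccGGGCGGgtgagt

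Counts summed to 55324078 to 70638283 per library. Values below are CPM, counts scaled to library size, with TMM scaling factors computed over all 12 libraries, and each test is edgeR's quasi-likelihood F test on the 8 libraries compared, two-sided, adjusted by the Benjamini-Hochberg method over all genes tested and called below 0.05. Between the FGF23 variant libraries and AKI_mcherry 23.1% of 18824 genes were called, 2199 higher and 2148 lower. Between the FGF23 variant libraries and NC 42.3% of 19005 were called, and between AKI_mcherry and NC 53.1% of 18724. Scaled by library totals alone, the median log2 change of all genes shifted to 0.21, 0.34 and 0.12 in these comparisons, against 0.00837, 0.0109 and -0.00264 with TMM factors, and the calls became 4060 higher and 1035 lower, 7829 higher and 2096 lower, and 5828 higher and 3958 lower. The TMM factors were 1.12 to 1.15 in the FGF23 variant libraries, 0.903 to 1.02 in AKI_mcherry and 0.879 to 0.911 in NC.

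Against AKI_mcherry, the FGF23 variant libraries had more Fgf23, Kl and Frs2 RNA. These 3 of 8 members, with the overexpressed Fgf23 among them, stand beside 11.7% of all genes called higher. As lower, edgeR called 0 of the 8, beside 11.4% of all genes, with 1 (Fgfr1) at an unadjusted p below 0.05 and the same 1 by DESeq2. Against NC, the FGF23 variant libraries were higher in Fgf23 and lower in Kl, Fgfr3 and Fgfr4, so that 1 and 3 of the 7 members in the test were called, beside 21.7% of all genes higher and 20.6% lower. AKI_mcherry was higher than NC in Fgfr1 and lower in the same Kl, Fgfr3 and Fgfr4, 1 and 3 of the 6 members in the test, beside 27.2% of all genes higher and 26.0% lower. These comparisons share libraries and are not independent of each other. Fgf23 is in the test only through the group where it is high, so its part in these counts was fixed by the design. Klb passed the filter on low counts only between the FGF23 variant libraries and AKI_mcherry.

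**Figure D1:**
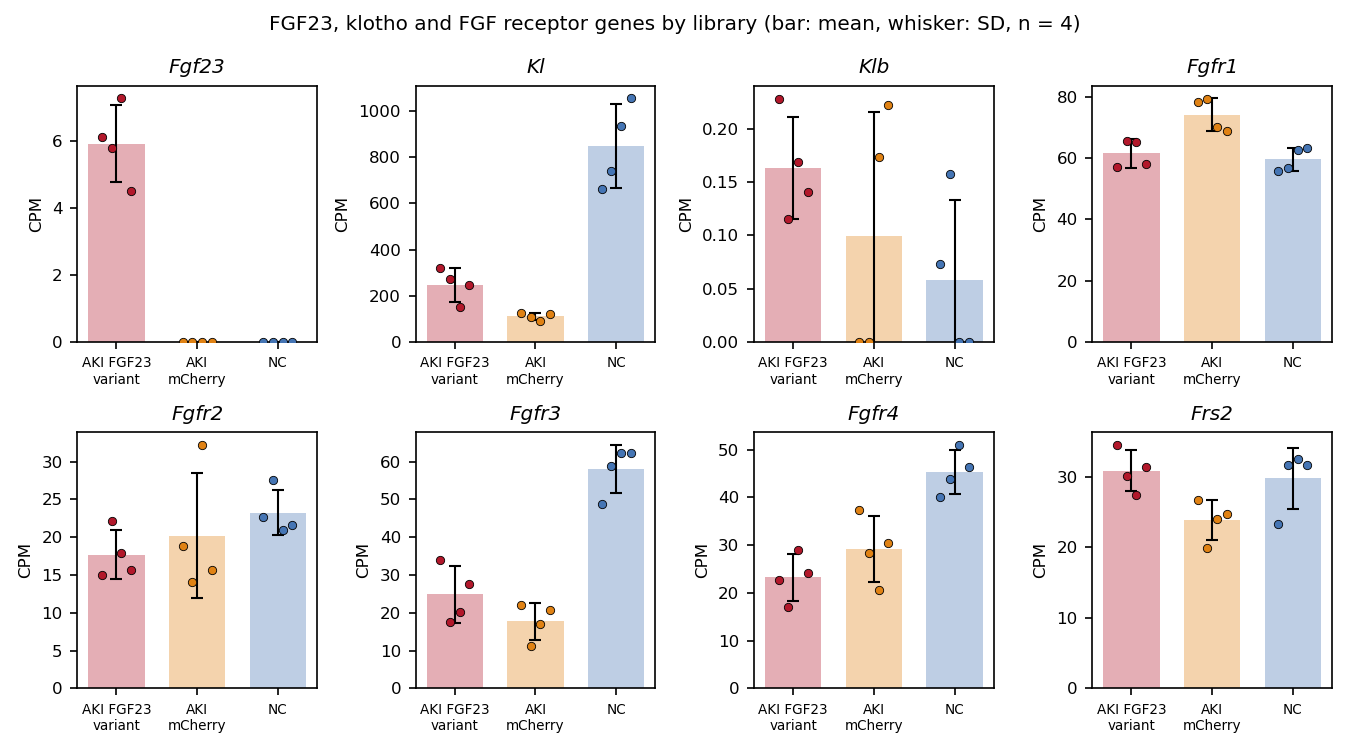
CPM of the 8 genes in each library (points), with the mean (bar) and SD (whisker) of the 4 libraries of each group on a linear axis from 0. Fgf23 is above 0 only in the FGF23 variant libraries, Kl is highest in NC and lowest in AKI_mcherry, and Fgfr3 and Fgfr4 are highest in NC.

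Fgf23, the ligand, was counted in every FGF23 variant library and in no other. Replicates 1, 2, 3 and 5 had 483, 450, 517 and 320 counts, against 0 counts in each of the 4 AKI_mcherry and the 4 NC libraries. In CPM the FGF23 variant libraries were at 5.92 ± 1.15 (SD, n = 4), with replicate 3 highest and replicate 5 lowest. Taking a nominal floor of 3 counts in each library at 0, a mean of 0.0512 CPM in AKI_mcherry and 0.0513 CPM in NC, Fgf23 was at least 116-fold higher in the FGF23 variant libraries than in AKI_mcherry and at least 115-fold higher than in NC. The gene test called both differences. FGF23 is what these mice overexpressed, and the gene entered the test only through these libraries, so the call was fixed in advance and adds no support. The fitted log2 change depends on the small number added to counts of 0 and is no measure of size. Per length, the mean of 3.41 ± 0.65 FPKM in the FGF23 variant libraries lay near those of Fgfr3 and Frs2 in the same libraries. Among low counts in the table a value of 4 occurred 11995 times, against 5847 for 3 and 3638 for 5, so the floor may not cover counting error in full.

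A list of bone and osteocyte markers, for the cell type that makes FGF23, summed to 1.63 to 2.78 CPM in the FGF23 variant libraries, 1.11 to 2.94 CPM in AKI_mcherry and 1.56 to 1.99 CPM in NC, over 4 of 5 genes with a value. Runx2 was the largest part of this sum in each group, at a mean of 1.88 CPM in the FGF23 variant libraries, 1.76 CPM in AKI_mcherry and 1.07 CPM in NC. Sost was at 0.172, 0.286 and 0.690 CPM in the same order. Ibsp, a bone matrix gene, was at 0 in all 4 FGF23 variant libraries, and Bglap, the osteocalcin gene, in those of AKI_mcherry and of NC. The sum thus says little about bone cells. RNA from an overexpressed copy in the kidney and from the animal's own gene cannot be told apart.

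Kl, the co-receptor that gives FGF23 its affinity in the kidney, was lowest in AKI_mcherry and stood between AKI_mcherry and NC in the FGF23 variant libraries. Replicates 1, 2, 3 and 5 of the FGF23 variant libraries had 319, 272, 149 and 246 CPM, against 124, 108, 89.9 and 119 CPM in AKI_mcherry replicates 1 to 4. NC replicates 1 to 4 had 661, 742, 938 and 1057 CPM. No library of any group overlapped another group, and replicate 3 of the FGF23 variant libraries came nearest to AKI_mcherry. Within groups Kl varied by a coefficient of variation of 29.1% in the FGF23 variant libraries, 13.8% in AKI_mcherry and 21.2% in NC.

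The FGF23 variant libraries had 2.24-fold more Kl RNA than AKI_mcherry (log2 change 1.16 ± 0.21 SE, edgeR adjusted p = 0.00463, higher in 4 of 4 libraries). They had 3.40-fold less than NC (log2 change -1.77 ± 0.23, edgeR adjusted p = 1.41e-04). AKI_mcherry had 7.59-fold less than NC (log2 change -2.92 ± 0.18, edgeR adjusted p = 4.54e-07). Relative to the NC mean, Kl stood at 29.0% ± 8.44 in the FGF23 variant libraries and 13.0% ± 1.78 in AKI_mcherry. All 3 calls and directions held in each of the 19 alternatives run per comparison. In bulk tissue, fewer cells of a type and less RNA per cell cannot be told apart.

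Summed proximal tubule markers had the same order of groups as Kl without overlap. Summed distal tubule markers, of which Klk1 was the largest part, overlapped between the injured groups. Calb1 and Pvalb of the distal list, taken singly, had the order of Kl without overlap, Pvalb being near 0 in AKI_mcherry (0 to 0.297 CPM). Trpm6 and Trpv5 of that list did not have this order without overlap. Trpm6 was at a mean of 12.5 CPM in the FGF23 variant libraries, 11.5 CPM in AKI_mcherry and 12.6 CPM in NC. Trpv5 was at 36.5, 22.7 and 18.9 CPM in the same order, higher in the FGF23 variant libraries than in NC (edgeR adjusted p = 0.00855). The 9 proximal tubule markers summed to 1472 to 3061 CPM in the FGF23 variant libraries, 893 to 1154 CPM in AKI_mcherry and 8742 to 12225 CPM in NC, or 19.2% of the NC mean in the FGF23 variant libraries and 9.40% in AKI_mcherry. Of these 9, 6 were called higher and 0 lower by edgeR in the FGF23 variant libraries against AKI_mcherry, with 0 lower also at an unadjusted p below 0.05 and by DESeq2. Slc34a1 (edgeR adjusted p = 0.218), Slc5a2 (0.0736) and Slc22a6 (0.800) were not called and overlapped between the injured groups. Slc34a1 was the largest part of the sum in AKI_mcherry and in NC. All 9 were called lower in each injured group against NC. The 8 distal convoluted and connecting tubule markers summed to 2416 to 2958 CPM in the FGF23 variant libraries, 2099 to 2817 CPM in AKI_mcherry and 3034 to 4120.4 CPM in NC, or 74.2% of the NC mean in the FGF23 variant libraries and 64.5% in AKI_mcherry, whose sums overlapped. Of these 8, 4 were called higher and 1 lower in the FGF23 variant libraries against AKI_mcherry. The higher ones were Slc12a3, Pvalb, Calb1 and Slc8a1, and none of these overlapped between the injured groups. Slc12a3 and Slc8a1 in the FGF23 variant libraries overlapped NC. Calb1 was at 251 ± 59.6 CPM in the FGF23 variant libraries, 91.1 ± 32.0 CPM in AKI_mcherry and 414 ± 106 CPM in NC. Klk1 was at 1291 ± 170 CPM in the FGF23 variant libraries and 1463 ± 213 CPM in AKI_mcherry, and was not called (edgeR adjusted p = 0.382). The lower one was S100g, the calcium-binding protein calbindin-D9k, at 64.6 ± 6.08 CPM in the FGF23 variant libraries and 214 ± 41.7 CPM in AKI_mcherry (edgeR adjusted p = 1.51e-04). Against NC, 1 was called higher and 4 lower in the FGF23 variant libraries, and 0 higher and 5 lower in AKI_mcherry by edgeR, with 0 higher also at an unadjusted p below 0.05 and by DESeq2. The 6 thick ascending limb markers, of which Umod was the largest part in each group, summed to 94.8% of the NC mean in the FGF23 variant libraries and 49.8% in AKI_mcherry. Slc12a1 of this list was at 700 ± 199 CPM in the FGF23 variant libraries, 94.5 ± 13.1 CPM in AKI_mcherry and 1307 ± 280 CPM in NC. Of the 6, it was the 1 called lower in the FGF23 variant libraries against NC (edgeR adjusted p = 0.00589), beside 5 called lower in AKI_mcherry. No marker of these 3 lists was at 0 throughout a group, and the part of tubule cell content in the Kl differences was not tested.

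**Figure D2:**
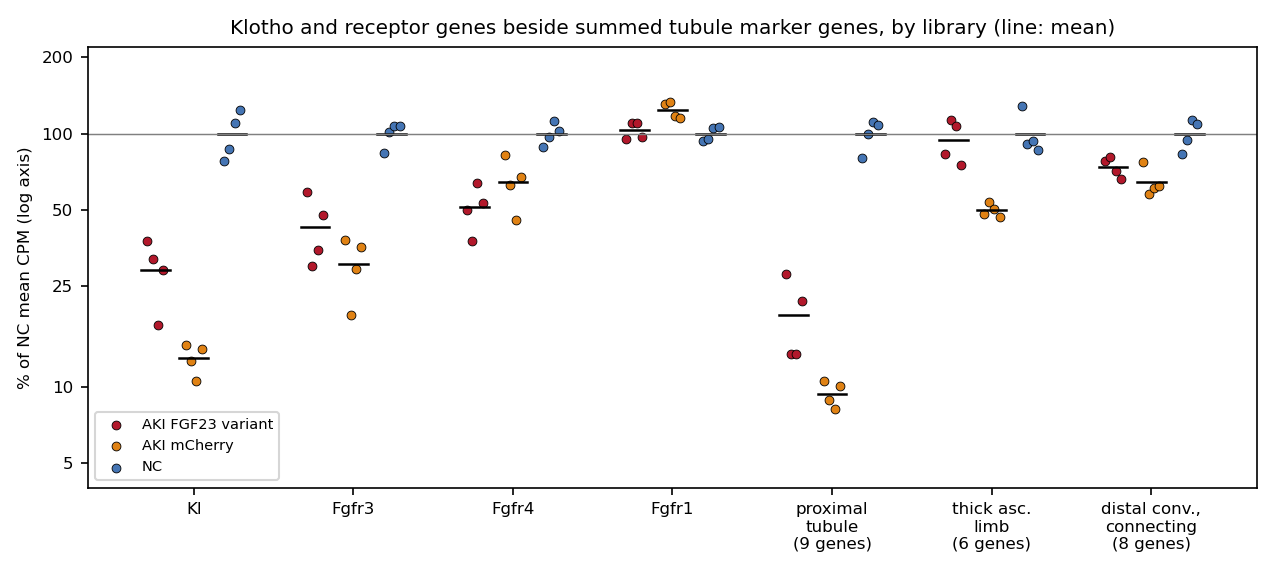
Level of each library as a percentage of the NC mean on a log axis, for Kl, 3 receptor genes and the summed CPM of 3 tubule marker lists, with a line at each group's mean. Kl and the summed proximal tubule markers are both lowest in AKI_mcherry and higher in the FGF23 variant libraries. The summed distal tubule markers of the injured groups overlap, and Fgfr1 lies near or above 100 in all groups.

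Klb, the co-receptor for FGF21 and for FGF15, was at the limit of detection. It had 18, 9, 12 and 10 counts in the FGF23 variant libraries, against 0, 0, 11 and 15 counts in AKI_mcherry and 4, 9, 0 and 0 counts in NC. The FGF23 variant libraries were the only group with counts in all 4, and their values overlapped those of AKI_mcherry (edgeR adjusted p = 0.649). Klb was left out of the tests against NC by the filter on low counts. Its mean of 0.0325 FPKM in the FGF23 variant libraries compares with 27.6 FPKM for Kl in the same libraries.

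Fgfr1, the receptor best known as klotho's partner for FGF23, was highest in AKI_mcherry. It had 56.9, 65.7, 65.3 and 57.9 CPM in the FGF23 variant libraries, against 78.2, 79.3, 70.0 and 68.8 CPM in AKI_mcherry and 55.6, 56.7, 62.5 and 63.1 CPM in NC. With TMM factors, every AKI_mcherry library lay above every library of the other groups, which overlapped each other. By FPKM the injured groups overlapped, at 6.04 to 6.88 in the FGF23 variant libraries and 6.52 to 7.25 in AKI_mcherry. Both lay above NC there, at 4.58 to 5.24 FPKM. The same held for CPM scaled by library totals alone. Fgfr1 was higher in AKI_mcherry than in NC (log2 change 0.34 ± 0.09, edgeR adjusted p = 0.0111). The lower level in the FGF23 variant libraries than in AKI_mcherry did not pass the test (log2 change -0.27 ± 0.09, edgeR adjusted p = 0.0585), but did by DESeq2 (adjusted p = 0.0316) and with all 12 libraries in 1 fit (edgeR adjusted p = 0.0344), over a range of 0.0316 to 0.668 in 19 alternatives. Against NC the FGF23 variant libraries did not pass either (log2 change 0.06 ± 0.08, edgeR adjusted p = 0.573). Scaled by library totals alone, that change became 0.40 and passed (edgeR adjusted p = 0.0020). The annotation places 1 gene on the other strand within Fgfr1, and whether counting used strand is not given in the sources used here.

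Fgfr2 spread most within AKI_mcherry. The FGF23 variant libraries had 15.0, 22.2, 17.9 and 15.6 CPM, against 18.8, 14.1, 32.2 and 15.7 CPM in AKI_mcherry and 22.7, 27.6, 20.996 and 21.6 CPM in NC. Replicate 3 of AKI_mcherry stood above all other libraries, and all 3 groups overlapped. The change between the FGF23 variant libraries and AKI_mcherry was -0.19 ± 0.25 on the log2 scale (edgeR adjusted p = 0.610), and turned to 0.13 without replicate 3 of AKI_mcherry. Against NC, the change was -0.38 ± 0.14 in the FGF23 variant libraries (edgeR adjusted p = 0.0506) and -0.18 ± 0.23 in AKI_mcherry (edgeR adjusted p = 0.527). The first passed in 5 of 19 alternatives, and the second became -0.49 without replicate 3 of AKI_mcherry (edgeR adjusted p = 0.0180). In the M21 annotation, on another build than the authors', the whole Fgfr2 model overlaps 69 other genes, 33 of them on the other strand. Whether reads of these genes entered the Fgfr2 counts was not tested.

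Fgfr3, a receptor best known as a brake on bone growth, followed the order of Kl with a smaller range. Fgfr3 had 34.1, 17.5, 20.2 and 27.7 CPM in the FGF23 variant libraries, against 22.0, 11.2, 17.0 and 20.7 CPM in AKI_mcherry and 48.8, 58.8, 62.3 and 62.4 CPM in NC. Every library of the injured groups lay below every NC library, and the injured groups overlapped. Fgfr3 was 2.30-fold lower in the FGF23 variant libraries than in NC (log2 change -1.20 ± 0.19, edgeR adjusted p = 5.78e-04) and 3.24-fold lower in AKI_mcherry than in NC (log2 change -1.69 ± 0.19, edgeR adjusted p = 3.57e-05). The change of 0.49 ± 0.25 between the FGF23 variant libraries and AKI_mcherry did not pass (edgeR adjusted p = 0.175). The annotation places 1 gene on the other strand within Fgfr3.

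Fgfr4, known in the liver as the partner of beta-klotho for FGF15, was highest in NC. The FGF23 variant libraries had 22.8, 17.0, 28.9 and 24.2 CPM, against 37.3, 28.4, 20.6 and 30.5 CPM in AKI_mcherry and 40.1, 43.9, 51.0 and 46.4 CPM in NC. NC did not overlap either injured group, and the injured groups overlapped. Fgfr4 was 1.93-fold lower in the FGF23 variant libraries than in NC (log2 change -0.95 ± 0.15, edgeR adjusted p = 5.05e-04) and 1.53-fold lower in AKI_mcherry than in NC (log2 change -0.61 ± 0.17, edgeR adjusted p = 0.00989). Between the FGF23 variant libraries and AKI_mcherry the change of -0.33 ± 0.20 did not pass (edgeR adjusted p = 0.250). Fgfr3 and Fgfr4 kept these calls in all 19 alternatives of each comparison.

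Frs2, the docking adaptor, was lowest in AKI_mcherry. Frs2 had 34.6, 30.1, 27.5 and 31.4 CPM in the FGF23 variant libraries, against 26.7, 19.9, 23.98 and 24.8 CPM in AKI_mcherry and 23.3, 31.7, 32.5 and 31.6 CPM in NC. The FGF23 variant and AKI_mcherry libraries did not overlap, and replicate 1 of NC lay within the AKI_mcherry range. Frs2 was 1.30-fold higher in the FGF23 variant libraries than in AKI_mcherry (log2 change 0.37 ± 0.12, edgeR adjusted p = 0.0409). This call was lost in 8 of 19 alternatives, with adjusted p from 0.0131 to 0.119 over all of them, 6 of the 8 being fits without 1 library: replicate 1, 2 or 5 of the FGF23 variant libraries (adjusted p = 0.116, 0.0806 and 0.0947) or replicate 2, 3 or 4 of AKI_mcherry (0.0724, 0.0724 and 0.0683, edgeR). Against NC, neither the FGF23 variant libraries (log2 change 0.07 ± 0.12, edgeR adjusted p = 0.674) nor AKI_mcherry (-0.30 ± 0.13, edgeR adjusted p = 0.0822) passed. Without NC replicate 1, the first became -0.0342 (edgeR adjusted p = 0.798) and the second -0.40 and passed (edgeR adjusted p = 0.0161). Scaled by library totals alone, Frs2 was higher in the FGF23 variant libraries than in NC, at 0.40 (edgeR adjusted p = 0.0186).

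In CPM with TMM factors, groups did not overlap for 3 members higher (Fgf23, Kl and Frs2) and 1 lower (Fgfr1) in the FGF23 variant libraries against AKI_mcherry. There 28.4% of all genes tested did not overlap, 14.5% higher and 13.9% lower. For Fgf23 this was fixed by its overexpression, here and against NC. Against NC, 1 member (Fgf23) was higher and 3 were lower without overlap in the FGF23 variant libraries, beside 41.6% of all genes tested, 20.4% higher and 21.1% lower. In AKI_mcherry 1 was higher and 3 were lower, beside 51.5% of all genes tested, 25.5% higher and 26.0% lower.

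**Figure D3:**
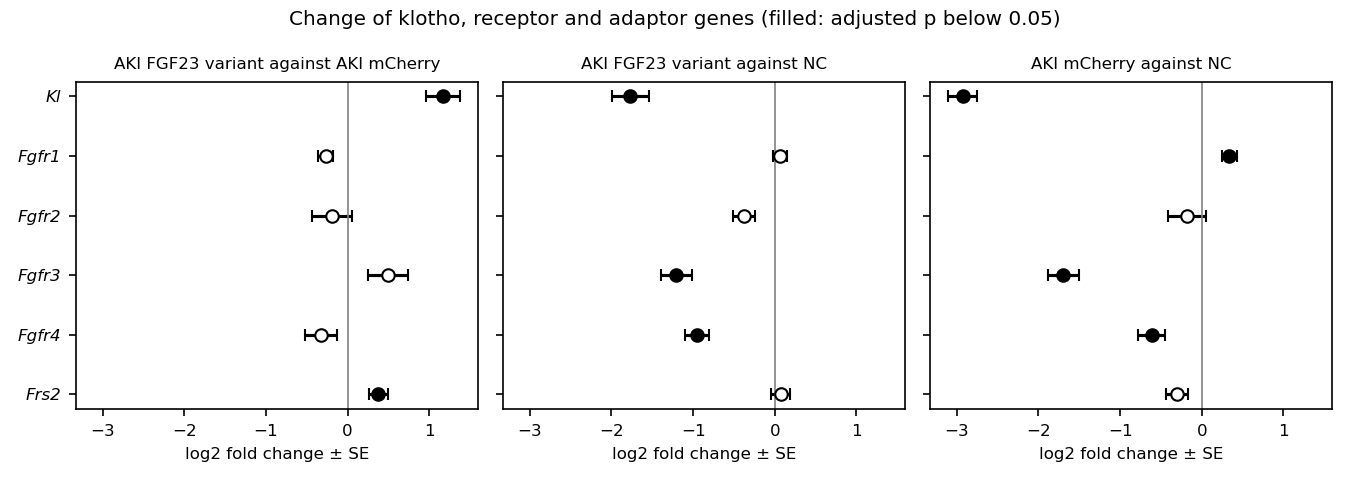
Log2 fold change of 6 genes with its SE in 3 comparisons, with filled points for adjusted p below 0.05 (edgeR). Kl lies right of 0 against AKI_mcherry and left of 0 against NC, and Fgfr3 and Fgfr4 lie left of 0 in both comparisons with NC.

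FPKM, which is scaled by gene length, was used to set the genes beside each other. Kl was the highest of the 8 in each group, at 27.6 ± 8.07 FPKM in the FGF23 variant libraries, 10.7 ± 1.64 in AKI_mcherry and 74.8 ± 15.2 in NC (SD, n = 4 each). In the FGF23 variant libraries Fgfr4 at 6.85 ± 1.45 FPKM and Fgfr1 at 6.49 ± 0.45 FPKM followed and overlapped each other, then Frs2 at 3.69 ± 0.37 FPKM, Fgfr3 at 3.63 ± 1.11 FPKM and Fgf23, which overlapped in turn, and Fgfr2 at 1.78 ± 0.31 FPKM. In AKI_mcherry the order was Kl, Fgfr4 at 7.45 ± 1.83 FPKM, Fgfr1, Frs2, Fgfr3 at 2.25 ± 0.70 FPKM and Fgfr2 at 1.78 ± 0.79 FPKM. Each overlapped the next there, except that Fgfr1 at 6.75 ± 0.34 FPKM lay above Frs2 at 2.48 ± 0.41 FPKM without overlap. In NC the first 5 were Kl, Fgfr4 at 10.5 ± 1.11 FPKM, Fgfr3 at 6.67 ± 0.75 FPKM, Fgfr1 at 4.94 ± 0.30 FPKM and Frs2 at 2.80 ± 0.43 FPKM, each without overlap with the next, and Fgfr2 at 1.84 ± 0.26 FPKM overlapped Frs2. Klb was at most 0.05 FPKM in every library.

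The share of each receptor in the pool was also described. The FPKM of Fgfr1 to Fgfr4 summed to 18.7 ± 1.52 in the FGF23 variant libraries, 18.2 ± 2.45 in AKI_mcherry and 23.97 ± 2.06 in NC (SD, n = 4 each). Fgfr1 made up 34.9% ± 4.55 of this sum in the FGF23 variant libraries, 37.4% ± 3.83 in AKI_mcherry and 20.7% ± 0.871 in NC. Its lowest share in an injured library, 31.3%, was above its highest in NC, 21.7%. Fgfr3 made up 19.3% ± 5.34 in the FGF23 variant libraries, 12.1% ± 2.72 in AKI_mcherry and 27.8% ± 1.10 in NC. Its share was 14.6% to 25.8% in the FGF23 variant libraries, 8.19% to 14.4% in AKI_mcherry and 26.3% to 28.8% in NC, and these 3 ranges did not overlap. Taken from counts, with no scaling by length, the injured groups did overlap, at 14.3% to 26.5% in the FGF23 variant libraries and 8.40% to 15.2% in AKI_mcherry. Fgfr4 made up 36.2% ± 5.11 in the FGF23 variant libraries, 40.6% ± 6.08 in AKI_mcherry and 43.9% ± 1.35 in NC. Fgfr2 made up 9.62% ± 2.52 in the FGF23 variant libraries, 9.85% ± 4.72 in AKI_mcherry and 7.72% ± 1.28 in NC. The highest Fgfr4 share in the FGF23 variant libraries, 42.2%, lay just below the lowest in NC, 42.7%, and AKI_mcherry overlapped both. The Fgfr2 shares overlapped between all groups. These shares were not tested, and a share can change because another receptor does.

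Kl exceeded the summed receptors by 1.49-fold on average in the FGF23 variant libraries (0.827 to 1.86), fell short of them at a ratio of 0.586 in AKI_mcherry (0.525 to 0.642) and exceeded them 3.11-fold in NC (2.74 to 3.75). The groups did not overlap in this ratio. Replicate 3 of the FGF23 variant libraries was the only one of the 4 with less Kl than receptor RNA by FPKM. Against Fgfr1 alone the ratio averaged 4.31 in the FGF23 variant libraries, 1.58 in AKI_mcherry and 15.0 in NC. These ratios carry the errors of FPKM as the authors scaled it and were not tested.

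**Figure D4:**
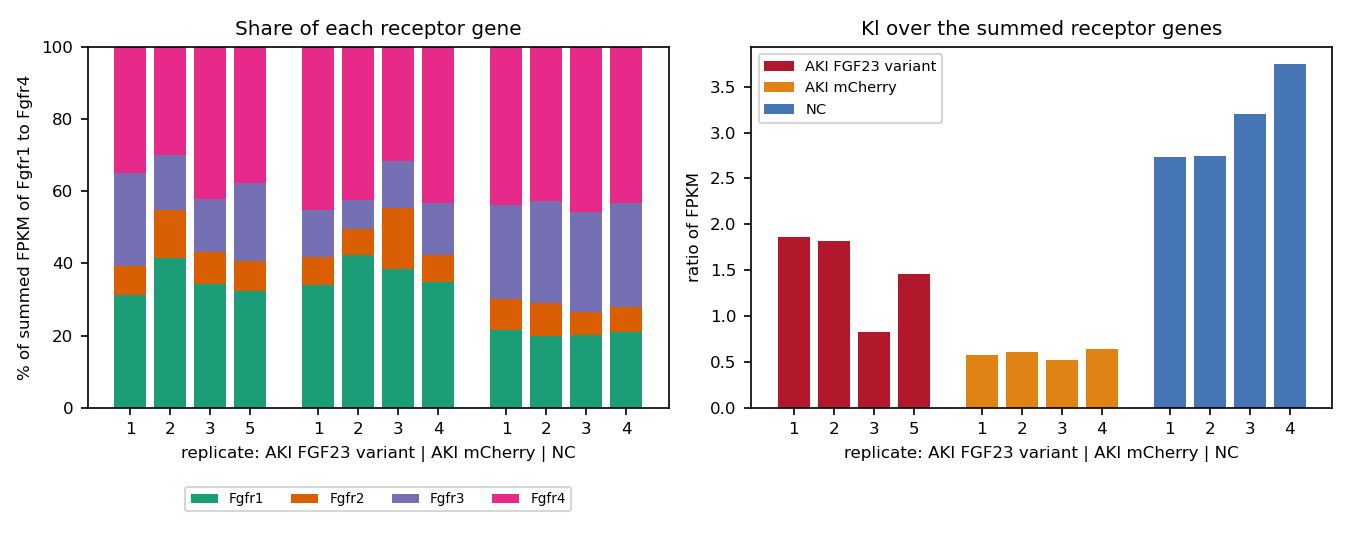
Left, share of each receptor gene in the summed FPKM of Fgfr1 to Fgfr4 in each library, in percent. Right, Kl FPKM divided by that sum in each library. The Fgfr1 share is smallest in NC, and the ratio lies below 1 in all AKI_mcherry libraries and in replicate 3 of the FGF23 variant libraries.

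For each gene but Fgf23, the 3 genes nearest in pattern were found among 11044 genes by the root mean square difference of log2(CPM + 1) over the 12 libraries, each gene centred on its mean. Kl was nearest to Fut9 (0.225), Lactb2 (0.237) and Pyroxd2 (0.239), against its own spread of 1.24 on the same scale. Fut9 was at 105 CPM in the FGF23 variant libraries, 48.3 CPM in AKI_mcherry and 390.3 CPM in NC. Fgfr3, with a spread of 0.777, was nearest to Slc22a4 (0.155), Ahcyl2 (0.176) and Slc25a13 (0.178). Fgfr4, with a spread of 0.464, was nearest to Slc5a10 (0.145), Galc (0.166) and Acadl (0.180). Fgfr1 was nearest to Gsk3a (0.0633), Smarcd1 (0.0642) and Btbd9 (0.0734), and Frs2 to Prdm9 (0.0788), Sap130 (0.0812) and Ubr1 (0.0832), with spreads of 0.163 and 0.222. Fgfr2, with a spread of 0.333, was nearest to Slc35g1 (0.142), Gprc5b (0.172) and Dennd2d (0.181). Klb had a spread of only 0.112 on this scale, near its differences from Tmem18 (0.0747), Trappc2 (0.0770) and Pgk1 (0.0820). With Klb at 0.228 CPM or less in every library, the 1 added to CPM flattens its values. In CPM alone its coefficient of variation was 117% in AKI_mcherry and 130% in NC. These neighbours thus say little about the pattern of Klb.

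Other genes of the pathway were counted in 7 lists, and each count stands beside the shares of all genes given above. Of the list of other FGF ligands, 10 of 21 were in the tests. Among these 10, Fgf11, Fgf12 and Fgf13 encode family members that stay inside the cell and are not secreted ligands. In the FGF23 variant libraries against AKI_mcherry 2 were higher and 0 lower by edgeR, with a median log2 change of 0.30 over the 10. As lower, 1 was at an unadjusted p below 0.05 and 0 were called by DESeq2. Fgf9, an epithelial and mesenchymal growth factor of the developing kidney, was at 14.6 ± 1.68 CPM in the FGF23 variant libraries and 8.86 ± 1.35 CPM in AKI_mcherry (edgeR adjusted p = 0.00771). Fgf10, which drives epithelial branching, was at 1.73 ± 0.816 CPM in the FGF23 variant libraries and 0.347 ± 0.263 CPM in AKI_mcherry (edgeR adjusted p = 0.0208), a fold that rests on low counts. Fgf1, a ligand of all FGF receptors, was the most abundant of the ligands named here and was lower than in NC in both injured groups. It had 155 ± 24.9 CPM in the FGF23 variant libraries, 151 ± 27.3 CPM in AKI_mcherry and 299.8 ± 37.8 CPM in NC (edgeR adjusted p = 2.18e-04 and 2.55e-04 against NC). Fgf18 went the other way at a low level, with 2.45 ± 0.895, 1.94 ± 0.865 and 0.667 ± 0.171 CPM in the same order (edgeR adjusted p = 0.00102 and 0.00586 against NC). In this list, 2 were higher and 1 lower than NC in the FGF23 variant libraries, and 2 higher and 2 lower in AKI_mcherry.

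Of 16 further co-receptors and decoys, 5 were higher and 4 lower in the FGF23 variant libraries than in AKI_mcherry. Sdc1, the heparan sulfate proteoglycan syndecan-1, was at 41.3 ± 14.5 CPM in the FGF23 variant libraries, 120.2 ± 12.8 CPM in AKI_mcherry and 19.6 ± 6.73 CPM in NC, so that it was lower than in AKI_mcherry (edgeR adjusted p = 0.00192), and AKI_mcherry was higher than NC (5.41e-06). Gpc3, glypican-3, was 2.45-fold higher (edgeR adjusted p = 7.81e-04), as was Flrt1, a membrane protein that binds FGF receptors, by 2.28-fold (0.00419). Against NC, 4 were higher and 5 lower in the FGF23 variant libraries, and 4 higher and 7 lower in AKI_mcherry. Gpc4, glypican-4, was at 78.8 ± 13.9 CPM in the FGF23 variant libraries, 49.0 ± 5.76 CPM in AKI_mcherry and 202.6 ± 31.5 CPM in NC, lower than NC in both (edgeR adjusted p = 5.24e-05 and 1.14e-06).

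Of 20 adaptor and ERK cascade genes, 1 was higher and 4 were lower in the FGF23 variant libraries than in AKI_mcherry. Nras, a RAS switch protein, was at 56.7 ± 8.59 CPM in the FGF23 variant libraries, 92.0 ± 4.76 CPM in AKI_mcherry and 27.2 ± 2.02 CPM in NC, with all 3 differences called (edgeR adjusted p = 0.00320 between the injured groups, 3.59e-05 and 1.97e-07 against NC). Gab1, a docking protein, was lower than NC in the FGF23 variant libraries and in AKI_mcherry, with 25.5 ± 1.48 CPM in the FGF23 variant libraries, 22.8 ± 1.14 CPM in AKI_mcherry and 43.7 ± 1.18 CPM in NC (edgeR adjusted p = 2.46e-05 and 7.98e-06). Frs3, the paralog of Frs2, was at 3.90 ± 0.652 CPM in AKI_mcherry and 13.3 ± 2.56 CPM in NC (edgeR adjusted p = 2.99e-05). Against NC, 6 genes of this list were higher and 7 lower in the FGF23 variant libraries, and 7 higher and 8 lower in AKI_mcherry.

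The feedback list, of genes that ERK signalling induces and that restrain it or carry it on, was higher than NC in most members. Of 14 in the test, 10 were higher and 1 lower in the FGF23 variant libraries against NC, with a median log2 change of 0.88, beside 0.0109 over all genes. In AKI_mcherry against NC 9 were higher and 2 lower, with a median of 0.70, beside -0.00264 over all genes. Dusp5, an ERK phosphatase, was at 30.0 ± 8.61 CPM in the FGF23 variant libraries, 48.8 ± 9.05 CPM in AKI_mcherry and 1.33 ± 0.493 CPM in NC (edgeR adjusted p = 2.18e-06 and 1.74e-07 against NC). Etv4, an ETS factor downstream of ERK, was at 11.98 ± 1.94 CPM in the FGF23 variant libraries, 13.6 ± 0.837 CPM in AKI_mcherry and 1.21 ± 0.258 CPM in NC (edgeR adjusted p = 1.09e-06 and 2.03e-07 against NC). Etv1, another ETS factor, was lower than NC in both, at 16.3 ± 5.56, 13.7 ± 3.35 and 30.6 ± 8.77 CPM in the same order (edgeR adjusted p = 0.0195 and 0.00182 against NC). Etv5 was also lower than NC in AKI_mcherry (edgeR adjusted p = 0.0320). Between the FGF23 variant libraries and AKI_mcherry 2 were higher and 3 lower, and the median was 0.03. The higher ones were Etv5, an ETS factor, by 1.66-fold (edgeR adjusted p = 0.00460), and Spry1, a receptor signalling inhibitor, by 1.36-fold (0.0189). The lower ones were Egr1, an immediate early factor, by 2.17-fold (edgeR adjusted p = 0.0149), Spred3, an inhibitor of RAF activation, by 2.02-fold (0.0107), and Dusp5 by 1.62-fold (0.0359). Receptors other than those for FGF also induce these genes, and the source of the change was not tested.

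A list on the glycosylation, phosphorylation and cleavage of FGF23 held 8 genes, of which Dmp1 and Phex were not in the test. The other 6 were all lower in the FGF23 variant libraries against NC, with a median log2 change of -0.66, and 4 were lower in AKI_mcherry, with a median of -0.55. In AKI_mcherry against NC, Galnt3 (edgeR adjusted p = 0.507) and Fam20c (0.525) were not called. The 6 were Galnt3, which glycosylates FGF23 near the cleavage site, Fam20c, which phosphorylates it, the proprotein convertases Furin, Pcsk5 and Pcsk6, and Enpp1, which makes pyrophosphate and does none of these. Fam20c was at 31.2 ± 3.74 CPM in the FGF23 variant libraries and 54.2 ± 8.08 CPM in NC (edgeR adjusted p = 4.62e-04). Furin was at 162 ± 6.74 CPM in the FGF23 variant libraries, 172 ± 14.4 CPM in AKI_mcherry and 228 ± 12.9 CPM in NC (edgeR adjusted p = 5.49e-04 and 0.00613 against NC). Between the FGF23 variant libraries and AKI_mcherry, Pcsk6 was 2.50-fold higher (edgeR adjusted p = 0.00425) and Pcsk5 1.54-fold higher (0.0353). By edgeR 0 were lower, with 2 at an unadjusted p below 0.05 and 1 called by DESeq2. The enzymes of this list also act on many other substrates.

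Of 17 genes listed under synthesis of heparan sulfate, which is part of the FGF receptor complex, 1 was higher and 2 were lower in the FGF23 variant libraries than in AKI_mcherry. Sulf1 and Sulf2 of this list remove sulfate from the chain and do not build it. They were among the genes called higher than NC in both injured groups. Against NC, 4 of the 17 were higher and 5 lower in the FGF23 variant libraries, and 5 higher and 7 lower in AKI_mcherry. Hs6st2, a 6-O-sulfotransferase, was at 1.16 ± 0.377 CPM in the FGF23 variant libraries, 1.54 ± 0.518 CPM in AKI_mcherry and 9.54 ± 1.94 CPM in NC (edgeR adjusted p = 1.31e-05 and 2.43e-05 against NC). Of 5 genes of klotho shedding and turnover, Adam10, a protease that releases klotho from the membrane, was at 71.8 ± 5.48 CPM in the FGF23 variant libraries, 94.1 ± 6.03 CPM in AKI_mcherry and 73.3 ± 1.49 CPM in NC. It was lower in the FGF23 variant libraries than in AKI_mcherry (edgeR adjusted p = 0.0138) and higher in AKI_mcherry than in NC (0.00248). Fbxo2, a ubiquitin ligase subunit that binds glycoproteins, was at 12.8 ± 1.08 CPM in the FGF23 variant libraries, 8.34 ± 3.11 CPM in AKI_mcherry and 1.47 ± 0.536 CPM in NC (edgeR adjusted p = 3.84e-06 and 7.58e-05 against NC).

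**Figure D5:**
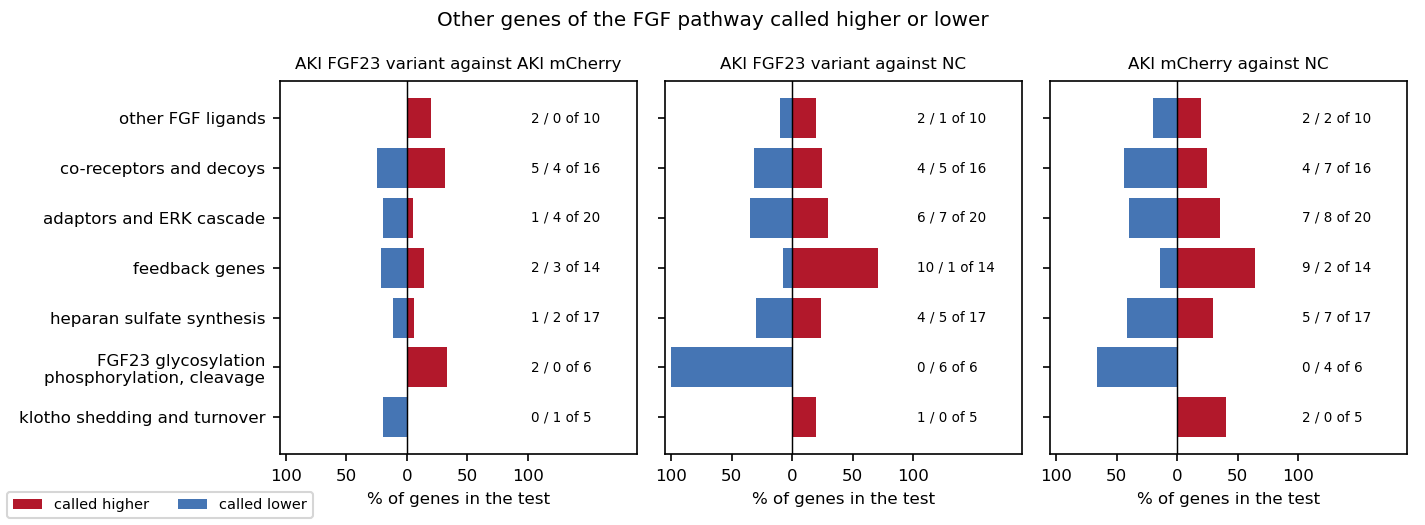
Share of the genes of 7 pathway lists called higher (right of 0) or lower (left of 0) in each comparison, in percent of the genes in the test, with higher / lower counts at the right of each panel. The feedback list lies mostly to the right in both comparisons with NC, and all 6 genes in the test of the FGF23 glycosylation, phosphorylation and cleavage list lie to the left in the FGF23 variant libraries against NC.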

How the data were processed

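Kidney poly(A) RNA was sequenced as read pairs from dUTP-marked libraries, per the labels' protocols. Per the submitters' processing notes, fastp, StringTie and edgeR were used with GRCm39. No version, aligner or gene annotation is given in the sources used here. Per the file headers, the authors deposited 1 count and 1 FPKM value per gene and library, and the 12 files of single samples hold the same values as the table of the series. The table has 0 columns of other samples. Symbols were found for 31942 gene IDs and not for 105.

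Groups come from the titles. Counts were tested with edgeR 4.0.16 in R 4.3.3 (TMM, filterByExpr, quasi-likelihood F test), each comparison on its own 8 libraries, and SE is the log2 change divided by the square root of F. The test was also run on simulated data. Deposited FPKM values served to compare genes with each other. Alternatives were RLE, upper quartile and library-total scaling, no filter, a minimum mean of 5 CPM, DESeq2 1.42.0, limma 3.58.1 with voom weights or on log2 of FPKM with 0.1 or 1 added, 1 fit over the 12 libraries, a block for the replicate number, a minimum log2 change of 1, and each library left out in turn.

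The genes and lists were chosen with earlier results of these data known. All 8 genes are named. From each pathway list the text draws on the up to 2 genes per direction and comparison with the smallest adjusted p. Dusp5 between the injured groups, Galnt3, Furin, Enpp1, Fgf11, Fgf13 and Sulf1 were named besides, after their values were seen. The same holds for the markers Slc12a3, Pvalb, Calb1, Slc8a1, S100g, Klk1, Trpm6, Trpv5, Slc34a1, Slc5a2, Slc22a6, Slc12a1, Umod, Runx2 and Sost. Of 204 list genes, 197 had a row. Arithmetic and plots used Python 3.11. Sequences came from GENCODE M21 and RefSeq tables of another build than the authors', so no coordinates of the deposited files are given.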

Additional observations from a re-analysis of the deposited data

Results flagged for a closer look

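Of 22 groups of 4 libraries tested for a library far from the others, 1 was picked out. Frs2 in NC replicate 1 was at 23.3 CPM, against 31.6 to 32.5 CPM in the other 3 NC libraries, a gap of 0.911 of the group's range, above Dixon's 95% critical value. Chance picks out about 1 in 20 such groups. Without that library Frs2 was lower in AKI_mcherry than in NC (edgeR adjusted p = 0.0161), a difference that did not pass with it (0.0822).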

How the results depend on the processing

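Of 396 single-gene log2 changes recomputed under alternatives, 367 kept direction and side of the threshold, 9 lost the call, 16 gained it and 4 reversed. The 4 were Fgfr2 in the FGF23 variant libraries against AKI_mcherry with FPKM plus 0.1 (0.0729), FPKM plus 1 (0.0343) and without AKI_mcherry replicate 3 (0.128), and Frs2 against NC without NC replicate 1 (-0.0342). With 1 library left out, these ran from -0.33 to 0.13 for Fgfr2 and from -0.0342 to 0.13 for Frs2. The cause was not tested. The gene calls between the FGF23 variant libraries and AKI_mcherry numbered 1430 with a log2 change of at least 1 and 2410 to 4259 with 1 library left out, fewest without FGF23 variant replicate 1. A log2 change of at least 1 left 2882 calls between the FGF23 variant libraries and NC and 5053 between AKI_mcherry and NC, and 2 of the 8 genes in the last, since it is a stricter rule. With 1 library left out these calls numbered 6977 to 8048 and 8916 to 9726. Also with 1 library left out, 2 to 3 of the 8 genes were called between the FGF23 variant libraries and AKI_mcherry, and 4 to 5 in each comparison with NC. Against AKI_mcherry 4 were called by DESeq2 and with the 12 libraries in 1 fit, and in the FGF23 variant libraries against NC 6 were called with library totals alone and on FPKM.

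The labels do not say whether replicate numbers pair libraries, and the main tests did not pair them. Same-number correlations of deviations were 0.0572 to 0.0908, -0.115 to -0.0573 and -0.130 to 0.0170 in the 3 comparisons. Different numbers gave -0.106 to 0.106 in the FGF23 variant libraries against AKI_mcherry. In the same order of comparisons, 4 of 6, 0 of 6 and 0 of 8 libraries correlated best with their own number. Correlations this small cannot decide whether libraries are paired. With the replicate block, over the numbers shared, 1710 and 4715 genes were called in the FGF23 variant libraries against AKI_mcherry and NC. Frs2 then no longer passed against AKI_mcherry (edgeR adjusted p = 0.119), nor Fgfr1 between AKI_mcherry and NC (0.0545).

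Receptor shares taken from counts, with no scaling by gene length, were 48.3%, 52.6% and 32.0% for Fgfr1 in the FGF23 variant libraries, AKI_mcherry and NC, and 18.2%, 20.6% and 24.3% for Fgfr4. Fgfr2 was at 13.9% in the FGF23 variant libraries and 12.5% in NC, and Fgfr3 at 19.5% in the FGF23 variant libraries, 12.5% in AKI_mcherry and 31.1% in NC, with overlap between the injured groups that FPKM did not show. Klb is limited by its low counts.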
